A study of Drosophila melanogaster with 12 samples.

Results

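Mock-treated PnM cells were compared with untreated PnM cells by haplotype-resolved Hi-C, using the 2 mock and the 2 untreated libraries, which are 4 of the 8 Hi-C libraries and 4 of the 12 samples of the series. The members were taken by their labels alone, and the question was how far the handling that accompanies RNAi moved *cis* and *trans*-homolog contacts before any gene was targeted. PnM is a male, diploid, hybrid *Drosophila melanogaster* line grown from 1 clone of a culture of embryos, with DGRP-057 as the maternal and DGRP-439 as the paternal strain, and all 4 libraries share this background. The mock cells were grown in plates and received calcium phosphate with water in place of dsRNA on the first day and again on the third, and were harvested on the fourth. The untreated cells received nothing, were fixed in culture flasks, and were sequenced on more lanes than the mock cells, so that treatment, culture vessel and sequencing cannot be told apart here. Both groups were fixed with formaldehyde, digested with DpnII and carried through the same in situ protocol. The methods of the study name the 2 replicates of each treatment in the RNAi experiment as biological, and those of the untreated cells only as replicates.

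In flies the maternal and paternal copies of a chromosome lie side by side in somatic cells, a state called homolog pairing, so a locus meets its homolog as well as its own neighbours. In haplotype-resolved Hi-C each side of a ligated read pair is assigned to a parent by the sequence variants it carries. A pair within 1 homolog is a *cis* contact and a pair between the maternal and the paternal copy of 1 arm is a *trans*-homolog (*thom*) contact. The ratio *thom*/*cis* at a given genomic separation is thus a measure of how readily a locus reaches across to the other homolog. Fly chromosomes are also often laid out with centromeres towards one side of the nucleus and telomeres towards the other, the Rabl arrangement, in which arms run in parallel and meet at matching distances from the centromere.

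The untreated libraries held 37284329 and 38465767 unique pairs and the mock libraries 11038225 and 12077016. Pairs on the arms 2L, 2R, 3L and 3R made up 60.5% to 60.7% of them, and each library was thinned at random to 6688455 such pairs. Another 38.8% to 39.1% had a side on X and were left out, since the hybrid genome of the files holds X from the mother only. That also means that the male label could not be tested with these pairs, and Hi-C pairs carry no cell type markers. The libraries differed in how pairs were recovered. Pairs rescued from chimeric reads were 36.7% and 36.6% of the untreated pairs against 11.8% and 12.1% of the mock pairs, and pairs under 1 kb apart were 32.7% and 31.6% against 28.9% and 28.0%. Each value below that could rest on this was therefore also computed in pairs of 2 linear alignments alone and in rescued pairs alone. With 2 libraries against 2, an exact permutation test cannot give a p below 0.33, so that this is the p of every single value whose groups did not overlap. Tests across many ranges, windows or blocks used limma with Benjamini-Hochberg adjustment, and a feature was called at an adjusted p under 0.05.

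In all pairs the paternal *cis* class was lower and the *thom* class higher in mock cells, and both orders depended on the pairs counted. *Cis*-maternal pairs were 34.7% and 34.2% of autosomal pairs in untreated cells and 34.5% in both mock libraries, and the groups overlapped. *Cis*-paternal pairs were 30.1% and 29.6% in untreated and 28.8% and 28.8% in mock cells, without overlap. *Thom* pairs were 25.7% and 25.9% in untreated and 26.3% and 27.1% in mock cells, again without overlap. In pairs of 2 linear alignments the paternal class overlapped (29.9% and 29.3% against 29.4% and 29.5%) and the *thom* difference was −0.485 points, and in same-strand pairs it was −0.331 points. The *thom* shares of the groups overlapped in both of these kinds of pair. The order of the *thom* class also turned once pairs under 1 kb were set aside. Of pairs at least 1 kb apart or between arms, *thom* pairs were 37.5% and 37.2% in untreated and 36.2% and 36.8% in mock cells, and *cis*-paternal pairs overlapped at 21.8% and 21.5% against 21.6% and 22.0%. Among *cis* and *thom* pairs at least 1 kb apart, 43.6% and 43.8% were *thom* in untreated and 42.4% and 42.5% in mock cells. Pairs between arms of 1 chromosome were 4.18% and 4.45% against 4.43% and 4.13%, and pairs between chromosomes 2 and 3 were 5.32% and 5.83% against 6.02% and 5.42%. Both of these classes overlapped between the groups. In rescued pairs alone neither did, with 4.15% and 4.38% against 5.501% and 5.09% between arms of 1 chromosome and 5.39% and 5.86% against 7.69% and 6.88% between chromosomes.

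*Cis* contacts were redistributed along the arms in mock cells, with more pairs at 1 kb to a few kb, more from 100 kb to several Mb, and fewer beyond. Contacts were counted in 32 ranges of separation from 1 kb to 10 Mb, 8 per order of magnitude, as pairs per 1000000 autosomal pairs. *Cis* contacts were called in 24 ranges, 75% of those tested, higher in mock cells in 23 (71.9%) and lower in 1 (3.12%). *Thom* contacts were called in 22 ranges (68.8%), higher in 20 (62.5%) and lower in 2 (6.25%). In the range that starts at 1 kb there were 2424 and 2359 *cis* pairs per 1000000 in untreated and 2939 and 2997 in mock cells, a log2 difference of 0.31 ± 0.033 (SE, adjusted p = 4.8e-13). At 10 kb the difference did not pass the test, with 11188 and 10913 against 11208 and 11669 pairs per 1000000 and a log2 difference of 0.050 (adjusted p = 0.17). Of the 5 separations named for *cis*, this was the only one not called. At 100 kb the mock libraries had 13717 and 14259 *cis* pairs per 1000000 against 12436 and 12710, a log2 difference of 0.15 (adjusted p = 2.9e-05). At 1 Mb they had 8888 and 8903 against 6926 and 7031, a log2 difference of 0.35 ± 0.033 (adjusted p = 9.1e-15). In the last range, from 7.5 Mb to 10 Mb, the direction turned, with 11753 and 11835 in mock against 12890 and 13266 in untreated cells (log2 difference −0.15, adjusted p = 4.6e-05). Every range received the same SE, because limma pooled the spread over ranges whose replicates varied alike, and neighbouring ranges of 1 library move together.

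*Thom* contacts moved in the same directions as *cis* contacts at the separations named, with a smaller rise at 1 Mb and a larger fall from 7.5 Mb. At 1 kb they were 1276 and 1229 pairs per 1000000 in untreated and 1465 and 1608 in mock cells (log2 difference 0.29 ± 0.037, adjusted p = 2.0e-09). At 1 Mb the *thom* pairs were 5783 and 5898 in untreated against 6685 and 6814 in mock cells, a log2 difference of 0.21 (adjusted p = 2.3e-06) beside the 0.35 of *cis*. From 7.5 Mb they were 11179 and 11519 against 9724 and 9813, a log2 difference of −0.22 (adjusted p = 1.3e-06). Beyond 10 Mb both classes were lower in mock cells. Of all pairs at least 1 kb apart or between arms, *cis* pairs over 10 Mb apart were 2.98% and 3.04% in untreated and 2.18% and 2.15% in mock cells, and *thom* pairs 2.60% and 2.66% against 1.81% and 1.78%. The decay was correspondingly steeper from 1 Mb to 7.5 Mb, where the slope of the *cis* contact frequency on log scales was −0.473 and −0.468 in untreated and −0.642 and −0.637 in mock cells. The slope of *thom* there was −0.453 in both untreated libraries and −0.597 and −0.596 in mock cells. The levels in the 32 ranges depended on the kind of pair, while the slopes and the shares over 10 Mb were computed in all pairs only. Among pairs of 2 linear alignments, *cis* was higher in 18 ranges and lower in 4 and *thom* higher in 15 and lower in 6, whereas among rescued pairs both were higher in all 32. With pairs under 1 kb left out of the total, *cis* was higher in 19 and lower in 2, and *thom* higher in 16 and lower in 7.

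**Figure D1:**
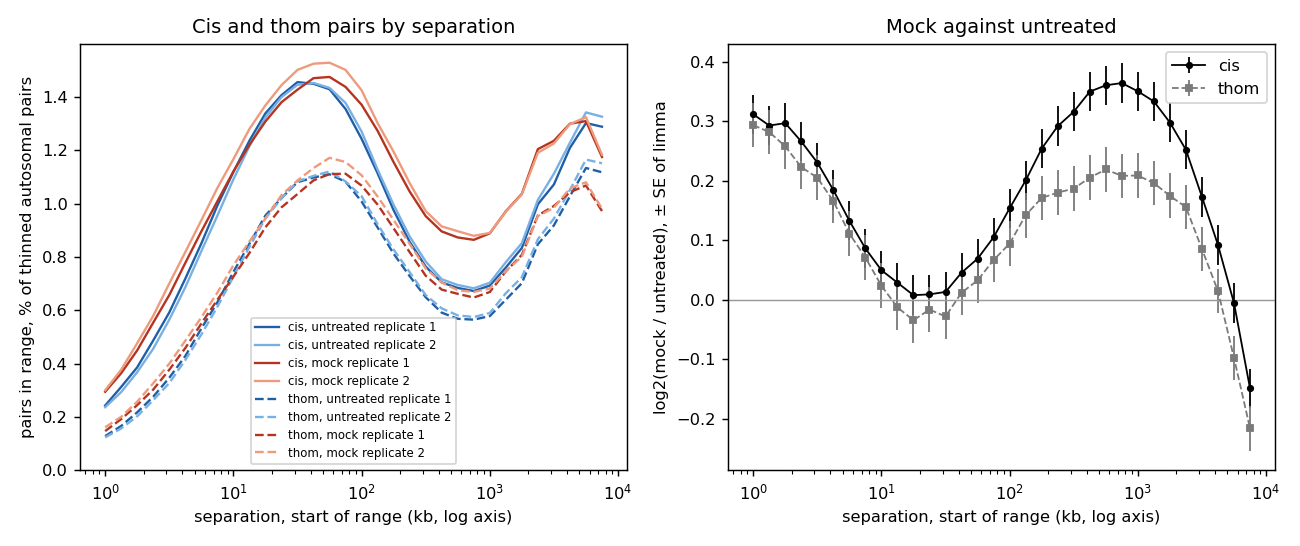
Left, share of thinned autosomal pairs (%) in each of 32 ranges of separation (kb, log axis) for *cis* (solid) and *thom* (dashed) in each of the 4 libraries. Right, log2 difference of mock and untreated cells with the SE of limma as bars, which is 0.31 for *cis* at 1 kb, under 0.05 from 13.3 kb to 42.2 kb, 0.35 at 1 Mb and −0.15 in the last range, with *thom* below *cis* at 1 Mb.

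*Thom* contacts did not keep up with *cis* contacts at large separations, so that *thom*/*cis* was lower in mock cells in 28 of the 32 ranges, 87.5%, and higher in none. At 1 kb *thom*/*cis* was 0.526 and 0.521 in untreated and 0.498 and 0.536 in mock cells, and the groups overlapped (log2 difference −0.018, adjusted p = 0.59). At 10 kb it was 0.665 in both untreated libraries and 0.648 and 0.659 in mock cells (log2 difference −0.026 ± 0.010, adjusted p = 0.0499, just under the threshold). At 100 kb it was 0.811 and 0.809 against 0.779 and 0.776 (log2 difference −0.059 ± 0.0073, adjusted p = 0.00053). The gap was widest among the ranges in the one that starts at 750 kb, where 0.840 and 0.842 faced 0.749 and 0.760 (log2 difference −0.16 ± 0.0095, adjusted p = 6.1e-05). At 1 Mb *thom*/*cis* was 0.835 and 0.839 in untreated and 0.752 and 0.765 in mock cells (log2 difference −0.14 ± 0.010, adjusted p = 7.4e-05). It narrowed to a log2 difference of −0.067 from 7.5 Mb (0.867 and 0.868 against 0.827 and 0.829, adjusted p = 0.00027). In untreated cells *thom*/*cis* stayed between 0.831 and 0.871 from 237 kb on, while in mock cells it went down from 0.782 and 0.788 at 237 kb to 0.749 and 0.760 at 750 kb before it rose again. In pairs of 2 linear alignments alone the log2 difference at 1 Mb was −0.15, and in rescued pairs alone −0.13. Without untreated replicate 1 the ranges called fell to 18, and without other single libraries they were 20 to 24.

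**Figure D2:**
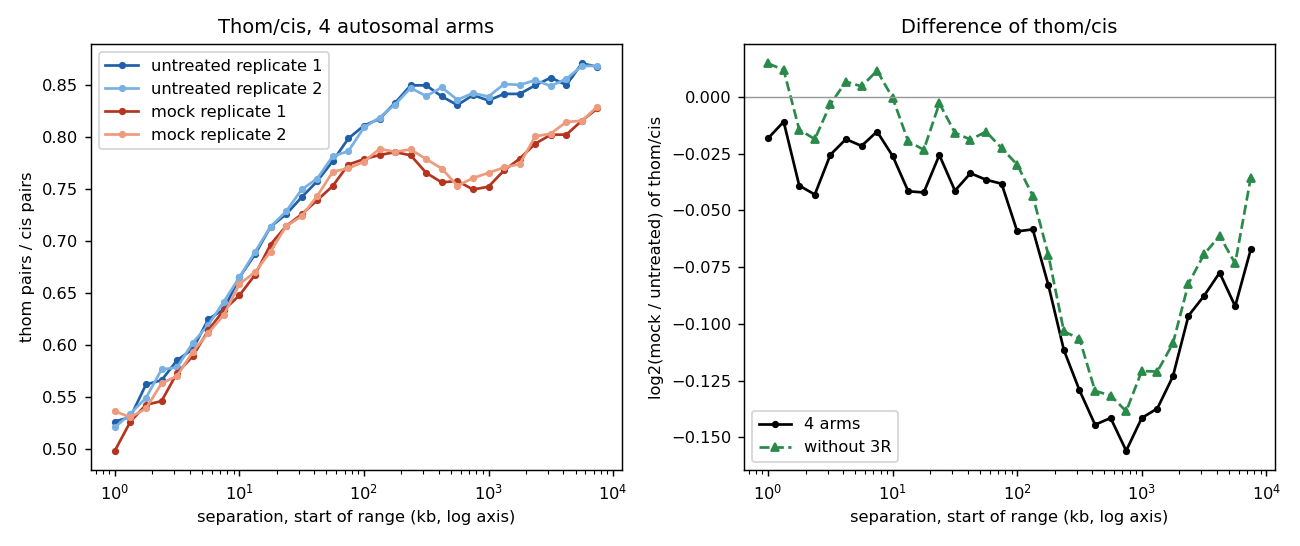
Left, *thom*/*cis* (ratio of pair counts) against separation (kb, log axis) in the 4 libraries, with the mock libraries at 0.752 and 0.765 and the untreated libraries at 0.835 and 0.839 at 1 Mb. Right, log2 difference of *thom*/*cis* between mock and untreated cells over 4 arms (black) and without 3R (green), which lies closer to 0 without 3R and falls to −0.14 there at 750 kb.

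The arms differed in the separations at which *thom*/*cis* was lower. At 1 kb to 10 kb *thom*/*cis* of 2L was 0.646 in both untreated libraries and 0.640 and 0.648 in mock cells, and that of 3L was 0.646 and 0.655 against 0.648 and 0.645. Both arms overlapped between the groups. On 2R it was 0.668 and 0.667 against 0.671 and 0.672, slightly higher in mock cells. Only 3R was lower at these separations among the 4 arms, with 0.448 and 0.445 in untreated and 0.411 and 0.415 in mock cells. At 100 kb to 1 Mb, by contrast, every arm was lower. *Thom*/*cis* there was 0.925 and 0.915 against 0.867 and 0.869 on 2L, and 0.909 and 0.915 against 0.854 and 0.858 on 2R. It was 0.902 and 0.903 against 0.850 and 0.853 on 3L. On 3R it was 0.642 and 0.647 against 0.576 and 0.583. At 1 Mb to 10 Mb the 3 arms other than 3R gave 0.946 and 0.949 together in untreated and 0.892 and 0.897 in mock cells, and beyond 10 Mb 0.969 and 0.974 against 0.958 and 0.955.

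Leaving out 3R left 16 called ranges, all of them starting at 100 kb or above and all lower in mock cells. Without 3R the log2 difference was 0.015 at 1 kb, −0.00040 at 10 kb, −0.030 at 100 kb (adjusted p = 0.032), −0.14 at 750 kb and −0.12 at 1 Mb (adjusted p = 0.00056), and it was −0.036 in the last range. The separation at which *cis* contacts were as frequent as *thom* contacts at 1 kb is a second reading of how closely homologs are in register. It was 7.99 kb and 8.02 kb in untreated cells and 6.49 kb and 5.99 kb in mock cells. Without 3R it was 6.63 kb and 6.45 kb against 5.35 kb and 4.74 kb. By this reading the mock libraries lay at shorter separations, and the *cis* curve that it is read from was itself steeper in mock cells from 1 kb to 10 kb, with slopes of −0.413 and −0.407 against −0.331 and −0.323.

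Along the arms, *thom*/*cis* was next taken in fixed windows of 100 kb, first for pairs with both sides in a window. Of 898 windows with enough pairs, 38 were called, which is 4.23%, with 13 higher in mock cells (1.45%) and 25 lower (2.78%). Of the 25 lower windows 20 lay on 3R, which had none higher. On 2L 5 windows were higher and 1 lower, on 2R 5 and 3, and on 3L 3 and 1. The median log2 difference was −0.029 on 2L, −0.023 on 2R, −0.030 on 3L and −0.13 on 3R, against −0.056 over all windows. With each library centred on its own median, 19 windows were higher and 10 lower. Calls at this scale rested on both replicates. None was left without untreated replicate 1 or without untreated replicate 2, 6 were left without mock replicate 1 and 15 without mock replicate 2.

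The windows with the largest called rise in short-range *thom*/*cis* were 3L:18200001-18300000, 2R:16000001-16100000 and 2L:11600001-11700000 (dm3 coordinates). The 3L window went from 0.212 and 0.272 in untreated to 0.327 and 0.370 in mock cells, a log2 difference of 0.54 ± 0.15 (adjusted p = 0.033). It rests on few pairs, 115 and 143 *thom* pairs in untreated and 194 and 225 in mock cells. The 2R window went from 0.335 and 0.328 to 0.465 and 0.430 (log2 difference 0.43 ± 0.099, adjusted p = 0.024). The 2L window, the deepest of these with 534 and 545 against 658 and 650 *thom* pairs, went from 0.293 and 0.290 to 0.385 and 0.377 (log2 difference 0.39 ± 0.070, adjusted p = 0.0026). All 3 windows lay below the median windows of their arms in untreated cells and moved towards them. The log2 *thom*/*cis* of those median windows was −0.375 on 2L, −0.323 on 2R and −0.358 on 3L. The 3 windows were chosen for the size of their rise, so that the absence of overlap between the groups adds no support.

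The windows with the largest called fall were 3R:4000001-4100000, 2R:1000001-1100000 and 3R:5900001-6000000. *Thom*/*cis* in the first fell from 0.766 and 0.721 to 0.545 and 0.454 (log2 difference −0.58 ± 0.15, adjusted p = 0.032), and in the last from 0.637 and 0.681 to 0.470 and 0.482 (−0.47 ± 0.12, adjusted p = 0.026). In untreated cells both stood above the median window of 3R, whose log2 *thom*/*cis* was −0.926. That median is over the whole arm, while both windows lie between 3.2 Mb and 8.3 Mb, a segment described below. The window 2R:1000001-1100000, about 1.05 Mb from the centromere-side end of the arm, fell from 0.267 and 0.281 to 0.220 and 0.168 (−0.51 ± 0.14, adjusted p = 0.032). It lay below the median window of 2R in untreated cells and moved further from it. All of these windows were chosen for the size of their change. No gene is named for any window, because only an annotation of another build was at hand.

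For pairs 100 kb to 1 Mb apart no single window of 905 was called by limma, which is 0%, and 187 had an unadjusted p under 0.05. Yet 85.2% of these windows were lower in mock cells, and both mock libraries lay below both untreated libraries in 466 of them (51.5%) and above in 34 (3.76%). The median log2 difference was −0.099 on 2L, −0.11 on 2R, −0.089 on 3L and −0.16 on 3R. It was −0.11 over all windows, and it lay between −0.12 and −0.099 under every alternative without centring. The count called was sensitive to the draw of pairs and to window size, with 27 lower windows under another thinning seed and 93 lower and 1 higher in windows of 200 kb. Among windows without overlap, not called, 2R:20800001-20900000 had the largest fall, from 1.09 and 1.03 to 0.634 and 0.711. It was followed by 2L:4900001-5000000, from 1.12 and 1.07 to 0.689 and 0.838, and by 3R:11300001-11400000, from 0.774 and 0.695 to 0.491 and 0.538. The largest rises that did not overlap, also not called, were in the adjacent windows 2L:22700001-22800000 and 2L:22600001-22700000 next to the centromere-side end of 2L. In the first *thom*/*cis* went from 0.400 and 0.377 to 0.553 and 0.516, and in the second from 0.447 and 0.387 to 0.521 and 0.522. The third, 2L:16700001-16800000, went from 0.768 and 0.870 to 0.975 and 1.00. Of these windows, 2L:16700001 turned to a log2 difference of −0.13 in same-strand pairs and −0.091 in pairs of 2 linear alignments, and 2L:4900001 to 0.077 in same-strand pairs.

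Whether the shift went along with how closely a region pairs was read from 4 equal groups of windows ordered by their *thom*/*cis* in the 4 knockdown libraries, which belong to neither group. At short range on 2L, 2R and 3L, the group with the lowest *thom*/*cis* had a median log2 difference of 0.030, and the other 3 groups −0.043, −0.037 and −0.044. In that lowest group 38.8% of 160 windows were lower in mock cells, against 70.6% of the 160 windows of the highest group. In the lowest group the median difference between the 2 untreated replicates was also 0.030, as large as that between mock and untreated cells, and in the second group it was 0.028. At long range the medians on these arms from the lowest to the highest group were −0.079, −0.11, −0.090 and −0.12. These medians are a description without a test. On 3R the medians of all 4 groups were below 0, −0.064, −0.16, −0.12 and −0.18 at short range.

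The level of *cis* contacts within windows and the coverage of windows also moved. *Cis* pairs at least 1 kb apart were higher in mock cells in 372 of 907 windows (41%) and lower in 90 (9.92%), together 50.9%, with a median log2 difference of 0.11. Both mock libraries lay above both untreated ones in 500 windows (55.1%) and below in 176 (19.4%). Once each library was centred on its median, 239 were higher and 266 lower. Among pairs of 2 linear alignments 263 were higher and 182 lower, and among rescued pairs 521 and 9. Without untreated replicate 2 the windows called fell from 462 to 242. Of the 3 largest rises 2 lay within 2 Mb of a centromere-side end. The window 2R:1900001-2000000 had 6.80 and 5.61 *cis* pairs per 1000000 in untreated and 10.4 and 11.3 in mock cells, and 2L:21600001-21700000 had 27.9 and 31.6 against 47.5 and 48.2. In 2R:10700001-10800000 they went from 35.8 and 32.97 to 57.3 and 50.9. The largest falls were in well covered windows, from 154 and 142 to 105 and 112 in 3R:16000001-16100000, from 150 and 172 to 117 and 122 in 3R:25200001-25300000, and from 117 and 114 to 85.3 and 87.4 in 2L:4700001-4800000. The 2 windows of 3R turned direction in rescued pairs alone, with log2 differences of 0.58 and 0.32.

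Read sides per window, a measure of how much DNA or mappable ligation product a region yields, were higher in 295 of 936 windows and lower in 295, 31.5% each and 63% together. The groups did not overlap in 382 windows that were higher (40.8%) and 385 that were lower (41.1%). Of the 3 largest called falls 2 were on 3R, in 3R:3400001-3500000 (991 and 998 to 806 and 823 read sides per 1000000, log2 difference −0.29 ± 0.020) and 3R:6800001-6900000 (1026 and 1026 to 828 and 854). Among the rises, 2L:7200001-7300000 went from 1178 and 1174 to 1408 and 1414 read sides per 1000000 (log2 difference 0.26 ± 0.018), and 2R:18100001-18200000 from 182 and 189 to 227 and 222. The sparse windows 3L:22800001-22900000 and 3L:21800001-21900000 changed by log2 0.46 and −0.63 on 41 to 99 read sides a library. As a share of autosomal read sides, 3R fell from 27.1% and 27.1% to 26.9% and 26.8%, and 2R rose from 22.0% and 22.0% to 22.3% and 22.3%. The windows called depended on the kind of pair. Among pairs of 2 linear alignments 329 of 932 windows were higher and 299 lower, and among rescued pairs 247 of 920 were higher and 372 lower. The SD of the log2 differences over windows was 0.31 in rescued pairs against 0.10 in all pairs.

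Maternal and paternal copies were nearly balanced on chromosome 2 in both groups and moved towards the maternal copy on both arms of chromosome 3 in mock cells. The maternal share of *cis* pairs at least 1 kb apart was 50.1% and 50.2% in untreated and 50.2% and 50.2% in mock cells on 2L, and 50.05% and 49.97% against 49.84% and 49.85% on 2R. The groups did not overlap on these arms either, but the differences were 0.060 points on 2L and −0.164 points on 2R. On 3L it was 49.7% and 49.7% in untreated and 50.8% and 50.9% in mock cells, a rise of 1.19 percentage points. On 3R, where the maternal copy already gave the larger share, it was 66.4% and 66.5% in untreated and 68.8% and 68.6% in mock cells, a rise of 2.27 points. The groups did not overlap on 3L or 3R (exact permutation p = 0.33 each, the smallest possible), and leaving out any single library gave rises of 1.13 to 1.24 points on 3L and 2.17 to 2.38 points on 3R. The rises were similar in pairs of 2 linear alignments (1.18 and 2.24 points) and in rescued pairs (1.46 and 2.40 points).

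The imbalance of 3R was not even along the arm, and neither was its shift. In untreated cells the ratio of maternal to paternal read sides stepped up with distance from the centromere-side end, at about 3.2 Mb and again at about 8.3 Mb, and these steps were placed after the windows had been seen. The authors infer the partial disomy of 3R from coverage, from near the first step to the telomere. They estimate it in a larger share of cells in the mock sample than in the untreated sample. The part of this disomy in the values below was not tested. Up to 3.2 Mb the ratio was 1.03 and 1.04 in untreated and 1.16 and 1.19 in mock cells. From 3.2 Mb to 8.3 Mb it was 1.35 and 1.35 against 1.59 and 1.58. Beyond 8.3 Mb it was 1.56 and 1.57 against 1.68 and 1.67. The ratio shifted by 0.13 in the proximal, 0.23 in the middle and 0.11 in the distal segment, so that the middle and the distal segment lay closer together in mock cells. Both mock libraries lay above both untreated libraries in 51 of 51 windows of the middle segment, in 14 of 15 proximal and in 172 of 196 distal windows, against 446 of 920 windows over the 4 arms (48.5%). The opposite order was found in 120 of the 920 (13%) and in none of those on 3R. On 3L 117 of 217 windows were higher without overlap and 14 lower, and the ratio over the arm went from 0.994 and 0.993 to 1.02 and 1.02. On 2L 47 of 229 windows were higher and 45 lower, and on 2R 45 of 212 were higher and 61 lower.

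On 3R paternal read sides were lower in all 3 segments, and maternal ones were higher in the middle and distal ones. From 3.2 Mb to 8.3 Mb paternal read sides fell from 13296 and 13474 to 11651 and 11643 per 1000000, while maternal ones were 17990.1 and 18145 in untreated and 18482 and 18354 in mock cells. Beyond 8.3 Mb paternal read sides fell from 90269.7 and 90248 to 86116 and 86370 per 1000000, and maternal ones went from 141092 and 141362 to 145070 and 144433. In the proximal segment paternal read sides fell from 4045 and 4025 to 3518 and 3481 per 1000000 and maternal ones were 4173 and 4199 against 4072 and 4130. *Thom*/*cis* was lower in mock cells in each of these segments. For pairs 100 kb to 1 Mb apart it was 0.916 and 0.912 in untreated and 0.788 and 0.776 in mock cells in the proximal, 0.723 and 0.724 against 0.618 and 0.615 in the middle, and 0.625 and 0.630 against 0.565 and 0.573 in the distal segment. On 2L and 2R the maternal share was 49.84% to 50.2% in all 4 libraries, and *thom*/*cis* at 100 kb to 1 Mb was lower in mock cells on both arms. A *thom* pair needs a read from each homolog, and the part of the homolog imbalance in the fall of *thom*/*cis* on 3R was not tested.

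In single 100 kb windows the maternal/paternal ratio of *cis* pairs was called higher in 16 of 892 windows (1.79%) and lower in 1 (0.112%), 1.91% together. Without overlap, 305 windows were higher (34.2%) and 98 lower (11%). Of the 16 windows 15 lay on 3R and 1 on 3L. The largest were 3R:4200001-4300000 (1.41 and 1.73 in untreated, 2.62 and 2.66 in mock cells), 3R:7700001-7800000 (1.49 and 1.61 against 2.75 and 2.40) and 3R:12400001-12500000 (1.63 and 1.79 against 2.63 and 2.55). The window called lower was 2R:6900001-7000000 (1.14 and 0.962 against 0.773 and 0.677). The largest falls without overlap that were not called lay at arm ends, in 2R:1-100000 (1.54 and 1.08 against 0.799 and 0.874) and 2L:1-100000 (1.05 and 1.16 against 0.722 and 0.767). The count of 17 called windows fell to 9 without untreated replicate 1, 5 without untreated replicate 2, 5 without mock replicate 1 and 7 without mock replicate 2, and it was 100 at full depth.

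**Figure D3:**
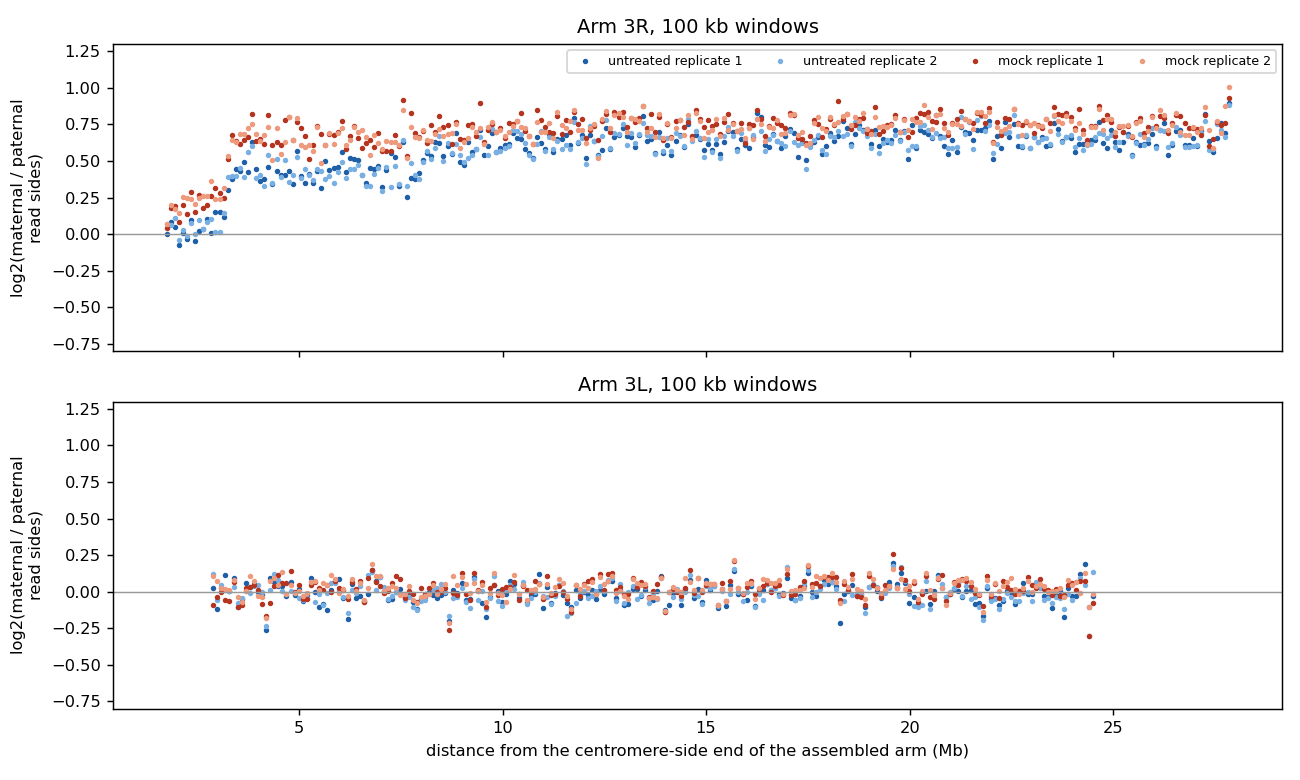
Log2 ratio of maternal to paternal read sides in 100 kb windows along 3R (top) and 3L (bottom), against the distance from the centromere-side end of the assembled arm (Mb), with 1 point for each library. On 3R the mock points lie above the untreated points in all 51 windows from 3.2 Mb to 8.3 Mb, and on 3L the points straddle 0 with the mock points slightly higher.

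The total of contacts between arms overlapped between the groups, other than in rescued pairs, but their layout moved. Contacts between the 2 arms of a chromosome were counted in blocks of 1 Mb by 1 Mb. Of 1099 blocks 94 were higher in mock cells (8.55%) and 152 lower (13.8%), together 22.4%, with 58 and 76 of these between 2L and 2R and 36 and 76 between 3L and 3R. Without overlap, 266 blocks were higher (24.2%) and 421 lower (38.3%). With each library centred on its median the split was 225 higher and 221 lower, and with pairs under 1 kb left out of the total it was 76 and 315. Among pairs of 2 linear alignments it was 84 and 270, and among rescued pairs 163 and 3. The number of calls was 2 without untreated replicate 1 or untreated replicate 2, and 0 without mock replicate 1 or mock replicate 2.

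Of the 6 inter-arm blocks named by the rule, 5 had the telomere-side last block of 2R or 3R on one side. Between 2L:1-1000000, at the telomere side of 2L, and the short last block of 2R, which starts at 21000001, there were 76 and 67 pairs in untreated and 173 and 170 in mock cells, a log2 difference of 1.26 ± 0.14 (adjusted p = 0.00024). Between 3L:1-1000000 and the last block of 3R, from 27000001, there were 289 and 265 against 528 and 461 pairs (log2 difference 0.83 ± 0.097, adjusted p = 0.00024). Both blocks join the telomere-side ends of the arms of 1 chromosome. The block of 2L:2000001-3000000 with the end of 2R followed, with 39 and 57 against 82 and 86 pairs (0.83 ± 0.20, adjusted p = 0.012). The falls joined the telomere side of one arm to the centromere side of the other. They were 3L:6000001-7000000 with 3R:1000001-2000000 (52 and 61 against 31 and 18 pairs, log2 difference −1.24 ± 0.26, adjusted p = 0.0063), and 2L:20000001-21000000 with the end of 2R (65 and 65 against 31 and 28, −1.13 ± 0.19, adjusted p = 0.0032). The neighbouring block 2L:21000001-22000000 with the end of 2R went from 49 and 51 to 35 and 22 pairs (−0.84 ± 0.24, adjusted p = 0.024). These blocks were chosen for the size of their change among those called, so that the absence of overlap between the groups adds no support.

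Between chromosomes 2 and 3, 16 of 2193 blocks were higher (0.73%) and 2 lower (0.0912%), together 0.821%. After centring the split was 126 and 41. Without overlap, 441 blocks were higher (20.1%) and 313 lower (14.3%). The count fell from 18 to 5 without untreated replicate 1, to 10 without untreated replicate 2, and to 0 without mock replicate 1 or mock replicate 2. The 3 largest called rises all involved the telomere-side end of 2L. With the last block of 3R, from 27000001, 2L:1-1000000 had 175 and 209 pairs in untreated and 362 and 337 in mock cells (log2 difference 0.87 ± 0.14, adjusted p = 8.3e-07). With 3R:25000001-26000000 it had 246 and 259 against 423 and 354 (0.62 ± 0.12, adjusted p = 0.00035), and with 3L:1-1000000 it had 177 and 215 against 284 and 298 (0.58 ± 0.14, adjusted p = 0.012). The 2 blocks that were lower joined 2L:20000001-21000000, near the centromere, to the outer part of 3R, with 154 and 178 against 117 and 91 pairs at 3R:24000001-25000000 and 145 and 163 against 94 and 100 pairs at 3R:18000001-19000000 (log2 differences −0.68 ± 0.18 and −0.66 ± 0.18). The largest fall not called was between the end of 2R and 3R:4000001-5000000, from 45 and 38 to 29 and 19 pairs.

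All 6 pairs of telomere-side ends met more often in mock cells. The quotient of contacts between the last 1 Mb of 2 arms to the mean of that pair of arms was 0.998 and 0.987 in untreated and 1.89 and 1.95 in mock cells for 2L and 2R. For 3L and 3R it was 1.45 and 1.32 against 2.55 and 2.41. In all pairs the ends of 2L and 2R thus met about as often as the mean of these arms in untreated cells. In mock cells they met more often. Between chromosomes it was 1.18 and 1.31 against 1.68 and 1.95 for 2L and 3L, and 1.27 and 1.47 against 2.38 and 2.43 for 2L and 3R. For 2R and 3L it was 1.88 and 1.83 against 2.42 and 2.58. The ends of 2R and 3R stood out in both groups, at 4.10 and 4.06 in untreated and 5.14 and 6.01 in mock cells. The groups did not overlap for any of the 6 pairs (exact permutation p = 0.33 each), and both the last 500 kb and the last 2 Mb gave the same order. The size of the difference depended on the pairs used. At a mapping quality of at least 30 it was 0.462 in place of 0.930 for 2L and 2R, 0.283 in place of 1.04 for 2L and 3R, and 0.292 in place of 0.646 for 2R and 3L. The levels also depended on it. At that quality the quotient of 2L and 2R was 0.867 and 0.654 in untreated and 1.18 and 1.26 in mock cells. That of 2R and 3R was 2.85 and 2.44 against 3.47 and 4.10. In rescued pairs the difference was 0.486 for 2L and 3R and 0.801 in place of 1.497 for 2R and 3R. At the centromere side only 2L and 2R had enough mapped pairs, and their quotient was 3.88 and 3.73 in untreated and 4.76 and 5.11 in mock cells. That order turned among rescued pairs, with a difference of −0.804. At a mapping quality of at least 30 the quotient was 1.11 and 1.15 against 0.992 and 1.37, so that the groups overlapped and the quotient itself was close to 1. Every other pair of centromere-side ends held at most 5 pairs in any library, too few to compare.

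Seen over whole arms, mock cells had more contacts between matching parts of 2 arms and fewer between opposite parts. Each arm was cut into 5 parts from the centromere to the telomere, and contacts were divided by those expected from the totals of the parts. For the parts next to the centromere of 2L and 2R this was 1.38 and 1.33 in untreated and 1.87 and 1.89 in mock cells. For those of 3L and 3R it was 0.987 and 1.01 against 1.44 and 1.42. Between the telomere part of 3L and the centromere part of 3R it was 0.919 and 0.897 against 0.6997 and 0.693, and between the telomere part of 2L and the centromere part of 2R 0.854 and 0.889 against 0.663 and 0.667. The middle parts of 2L and 2R, at 0.984 and 1.02 against 1.05 and 1.07, moved by a log2 difference of 0.080.

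**Figure D4:**
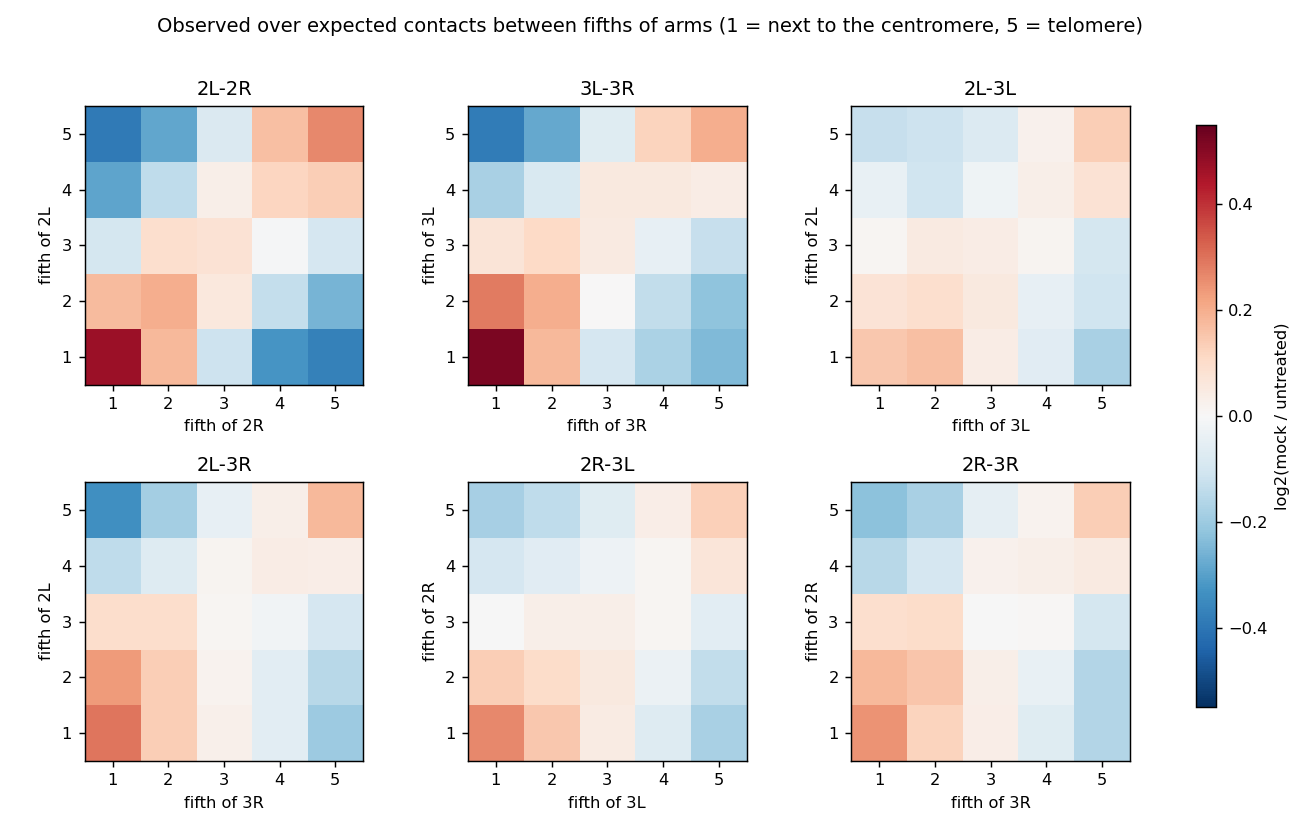
Log2 difference between mock and untreated cells of observed over expected contacts for each pair of parts of 2 arms, 5 to an arm,, from the centromere (1) to the telomere (5), in 6 panels for the 6 pairs of arms. Matching corners are red (0.47 for the centromere parts of 2L and 2R, 0.52 for those of 3L and 3R) and opposite corners blue (−0.39 for the telomere part of 2L with the centromere part of 2R).

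This layout was summed up as the log2 odds ratio of contacts between like ends against unlike ends, a measure chosen after the blocks had been seen. It was 1.02 and 0.880 in untreated and 2.44 and 2.44 in mock cells for 2L and 2R, and 0.464 and 0.479 against 1.81 and 1.83 for 3L and 3R. Between chromosomes its mean was 0.430 and 0.324 against 1.10 and 1.21. Over all 6 pairs of arms it was 0.534 and 0.443 in untreated and 1.44 and 1.52 in mock cells, a difference of 0.99 that did not overlap (exact permutation p = 0.33). The difference was 0.97 in pairs of 2 linear alignments and 0.92 in rescued pairs, and 0.95 to 1.04 with any single library left out. By this measure like ends met more often in mock cells.

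**Figure D5:**
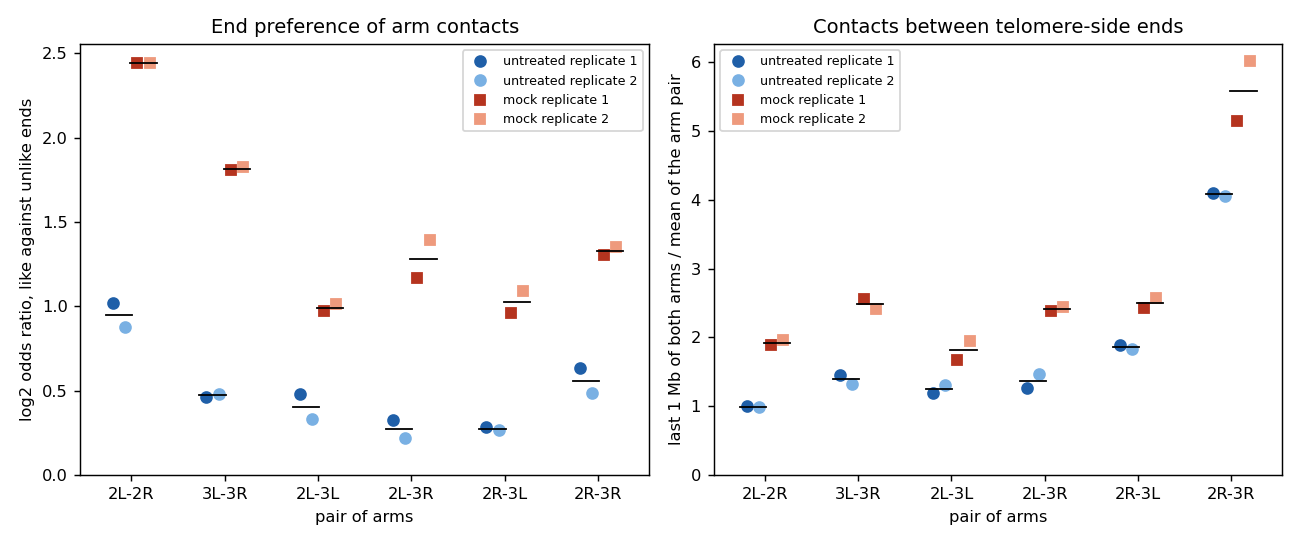
Left, log2 odds ratio of contacts between like against unlike ends for 6 pairs of arms. Right, contacts between the last 1 Mb at the telomere side of both arms over the mean of the arm pair. Points are single libraries and bars group means, and in both panels the mock libraries lie above the untreated libraries for each of the 6 pairs, for example 1.89 and 1.95 against 0.998 and 0.987 for the telomere ends of 2L and 2R.

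Contacts between the arms of a chromosome were nearly blind to which homolog they came from in both groups. The log2 ratio of same-homolog to different-homolog pairs was 0.029 and 0.025 in untreated and 0.052 and 0.053 in mock cells for 2L with 2R, and 0.026 and 0.018 against 0.051 and 0.065 for 3L with 3R. Neither chromosome overlapped between the groups (exact permutation p = 0.33), though in rescued pairs alone chromosome 2 did. Different-homolog pairs were thus 0.980 and 0.983 of the number of same-homolog pairs in untreated and 0.964 and 0.964 in mock cells on chromosome 2. On chromosome 3 they were 0.982 and 0.987 against 0.965 and 0.956. Between chromosomes 2 and 3 the log2 odds ratio of same-parent against mixed pairs was −0.0039 and −0.011 in untreated and 0.0081 and 0.022 in mock cells. These values did not overlap between the groups, but they did in same-strand pairs, in pairs of 2 linear alignments and in rescued pairs.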

How the data were processed

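Trimmed reads had been mapped against both haplotypes of dm3 joined into 1 hybrid genome (bwa mem, version 0.7.15-r1140), pairs were extracted with pairsamtools 0.0.1-dev, and pairs that mapped uniquely to 1 homolog were kept without PCR duplicates. For each pair the authors deposited the position and strand of each side, in base pairs, and its mapping quality score as the aligner gave it, without normalization. All counts were made here. Pairs on 4 autosomal arms were thinned at random to equal numbers per library, 6688455, and no filter on the mapping quality score was applied. Windows of 100 kb needed a mean of at least 50 pairs in each class and blocks of 1 Mb a mean of at least 20, with 0.5 added before log2 values were taken. Fold changes are therefore on the log2(count + 0.5) scale. R 4.3.3 with limma 3.58.1 (lmFit, eBayes with trend for windows and blocks, Benjamini-Hochberg at 0.05), scipy 1.17.1 under Python 3.11.15, pandas 2.3.3, numpy 2.4.6 and matplotlib 3.10.9 were used, and only the 4 libraries entered a fit. Single values were compared by two-sided exact permutation over libraries. The replicate number was not used as a block. Read sides of replicates differed by more than counting noise (chi-square per degree of freedom 1.79 in untreated, 1.46 in mock cells). Such a spread cannot tell biological from technical replicates. All 4 libraries were treated as separate, which these data cannot test for the untreated cells.

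In data simulated at these depths, a log2 change of 0.25 was called in 66.1% of changed short-range and 54.3% of long-range *thom*/*cis* windows (of 898 and 905 windows), 40.9% of balance windows, 52.2% of inter-arm and 20.6% of inter-chromosome blocks, and 0.5 in 90.9%, 90.8%, 97.0%, 96.4% and 76.1%. The simulated counts were Poisson draws around the means of the real libraries, with no further spread between replicates. These shares may therefore be too high where replicates differ by more than counting noise.

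The rule for named features took the 4 arms, the arm ends, the separations at 1 kb, 10 kb, 100 kb, 1 Mb and the last range, and for each window or block comparison the 3 called features with the largest rise and the 3 with the largest fall, or, where fewer were called, the largest without overlap, said not to be called. The range at 750 kb, the segments of 3R and the odds ratio of like ends were chosen after their values were seen. The comparison, the members and the named features were chosen with earlier results of these data known. Alternatives were full depth, another seed, a mapping quality of at least 30, same-strand pairs, other windows, blocks, ends, pseudocounts and minimum counts, centring, other totals, a background subtraction, arms left out, the replicate block and each library left out.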

Additional observations from a re-analysis of the deposited data

How the results depend on the processing

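The difference of *thom*/*cis* at 1 Mb, the maternal rise on 3L and 3R, the 6 contacts of telomere-side ends and the like-end odds ratio kept their direction under every alternative run. The telomere-side differences shrank at a mapping quality of at least 30, to 0.283 for 2L and 3R, 0.292 for 2R and 3L and 0.462 for 2L and 2R, and the centromere-side difference of 2L and 2R to 0.052. The alternatives with pairs of 2 linear alignments, with rescued pairs, without 3L and 3R and with a crossed block were chosen after seeing the data. Depth limited single windows and blocks, since rescued pairs thin to 789213 a library and pairs with a mapping quality of at least 30 to 1599090, and the number called there says little about stability. With a single library left in a group, its spread was taken from the other group. Causes of the changes below were not tested.

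Counts of *thom*/*cis* ranges were 28 and became 17 at a mapping quality of at least 30, 13 in rescued pairs, 16 without 3R, 15 without 3L and 3R, and 18 to 24 with a library left out. Short-range windows were 38 and became 93 at full depth, 19 with another seed, 1 at the quality minimum, 0 in same-strand and in rescued pairs, 5 in 50 kb and 83 in 200 kb windows, and 0 to 15 with a library left out. Long-range windows were 0 and became 2 at full depth, 27 with another seed, 2 in linear pairs and 94 in 200 kb windows. *Cis* level windows were 462 and became 223 at the quality minimum, 291 in same-strand pairs, 262 in 200 kb windows and 242 to 435 with a library left out. Coverage windows were 590 and became 354 at the quality minimum, 1067 in 50 kb and 315 in 200 kb windows. Balance windows were 17 and became 100 at full depth, 0 at the quality minimum, in rescued pairs and with no minimum, 6 in same-strand pairs, 7 in 50 kb and 49 in 200 kb windows, and 5 to 9 with a library left out. Inter-arm blocks were 246 and became 0 at the quality minimum, 117 in 2 Mb blocks, 56 with no minimum, 446 after centring, 391 with pairs under 1 kb left out of the total, and 0 to 2 with a library left out. Inter-chromosome blocks were 18 and became 32 at full depth, 0 at the quality minimum, in rescued pairs and with no minimum, 2 in same-strand pairs, 5 in 2 Mb blocks, 167 after centring, 11 with pairs under 1 kb left out, and 0 to 10 with a library left out.

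The differences of pair classes turned in places (mock minus untreated, percentage points). *Cis*-maternal pairs, 0.046, gave −0.336 at the quality minimum, −5.03 in rescued pairs, −0.495 without 3R, and −0.204 to 0.296 with a library left out. *Cis*-paternal pairs, −1.05, gave 0.151 with pairs under 1 kb left out. *Thom* pairs, 0.895, gave −0.331 in same-strand pairs and −0.485 in linear pairs, where the groups overlapped, and −0.810 with pairs under 1 kb left out. Inter-arm pairs, −0.038, gave 0.086 at the quality minimum, 1.03 in rescued pairs, 0.0089 without 3R, and −0.188 to 0.111 with a library left out. Inter-chromosome pairs, 0.146, gave −0.125 in same-strand pairs, −0.027 in linear pairs, −0.216 with pairs under 1 kb left out, and −0.152 to 0.443 with a library left out. The maternal share of 2L, 0.060, gave −0.011 with another seed, and the centromere ends of 2L and 2R, 1.13, gave −0.804 in rescued pairs.

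Among named values, log2 *thom*/*cis* at 1 kb, −0.018, gave 0.0098 in same-strand pairs, 0.015 without 3R, 0.013 without 3L and 3R and −0.071 to 0.035 with a library left out, and *thom*/*cis* over 10 Mb without 3R gave 0.00095 at the quality minimum. At 10 kb *cis* gave −0.0016 in same-strand, −0.028 in linear pairs and −0.027 with pairs under 1 kb left out, and *thom* gave −0.050, −0.059 and −0.053 there and −0.017 to 0.065 with a library left out. From 7.5 Mb *cis* gave 0.18 and *thom* 0.11 in rescued pairs. The long-range windows 2L:16700001 gave −0.13 in same-strand and −0.091 in linear pairs, and 2L:4900001 gave 0.077 in same-strand pairs. The *cis* level of 3R:16000001 and 3R:25200001 gave 0.58 and 0.32 in rescued pairs.

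The labels give both groups the replicate numbers 1 and 2 but no shared culture or day. With a replicate block, 66 short-range windows, 9 long-range windows and 1 inter-chromosome block were called, and counts of other comparisons stayed within 1.5 times. The replicate differences of the groups correlated at −0.69 for *cis* and −0.73 for *thom* ranges and at −0.054 to 0.13 elsewhere. A crossed replicate block called 25 *cis* and 20 *thom* ranges.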

Other observations

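The 4 knockdown libraries, which were handled like the mock libraries and sequenced to a similar depth, give a scale for the values above, set side by side without a test. *Thom*/*cis* at 100 kb to 1 Mb without 3R was 0.913 and 0.911 in untreated and 0.858 and 0.860 in mock cells, 0.817 and 0.825 under Slmb RNAi, and 0.767 and 0.807 under Top2 RNAi. At 1 kb to 10 kb without 3R it was 0.653 and 0.656 in untreated, 0.652 and 0.655 in mock cells, 0.590 and 0.596 under Slmb RNAi, and 0.584 and 0.608 under Top2 RNAi. At 1 kb to 10 kb without 3R mock and untreated cells thus stood together, apart from all 4 knockdown libraries. At 100 kb to 1 Mb without 3R mock cells stood between untreated and knockdown cells. With 3R included, *thom*/*cis* at 1 kb to 10 kb was 0.595 and 0.596 in untreated and 0.582 and 0.585 in mock cells at full depth, without overlap.

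The maternal share of *cis* pairs on 3R was 69.5% and 69.4% under Slmb RNAi and 69.0% and 66.8% under Top2 RNAi, beside 66.4% and 66.5% in untreated and 68.8% and 68.6% in mock cells. Top2 RNAi replicate 2, at 66.8%, lay next to the untreated libraries, and its ratio of maternal to paternal read sides from 3.2 Mb to 8.3 Mb was 1.51, between the untreated 1.35 and the mock 1.59 and 1.58. The like-end odds ratio over 6 pairs of arms was 0.994 and 1.12 under Slmb RNAi and 1.19 and 1.99 under Top2 RNAi, all above the untreated 0.534 and 0.443. Both Slmb RNAi values and the lower Top2 RNAi value lay below both mock libraries, and the higher Top2 RNAi value lay above them. The replicates of Top2 RNAi thus differed widely in this measure. For the telomere ends of 2R and 3R the quotient was 4.30 and 4.92 under Slmb RNAi, 4.49 and 7.77 under Top2 RNAi, 4.10 and 4.06 in untreated and 5.14 and 6.01 in mock cells. Pairs rescued from chimeric reads were 10.3% to 11.9% of the knockdown libraries and 11.8% and 12.1% of the mock libraries, and the untreated libraries stood apart from all of these at 36.7% and 36.6%.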
